A study of Rattus norvegicus with 9 samples.

Results

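Fast fibre contractile genes encode the parts of the contractile apparatus that are characteristic of fast-twitch muscle fibres, and 10 of them were followed here in rat pubococcygeus, a skeletal muscle of the pelvic floor. All animals were female Sprague-Dawley rats. The set was Myh2, Mylpf, Myl1, Tnnt3, Tnni2, Tnnc2, Actn3, Pvalb, Mybpc2 and Mylk2. They were chosen by gene symbol, and where a symbol stood on several rows the row with the highest mean count was taken. The gene tables hold 30518 rows, and all 10 genes were among the 16256 that passed the filter on low counts, so no member was lost to it. Of the 10, 8 were found by symbol and 2 under another name, which are described below.

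A muscle fibre shortens when myosin heads pull on actin filaments. Calcium released in the fibre binds troponin C, which moves troponin I and troponin T on the actin filament and opens the sites for myosin. Most of these proteins exist in a fast and a slow form from separate genes, and a fibre's set of forms goes with its speed, its calcium handling and its resistance to fatigue. Nerve activity, load and electrical stimulation are textbook settings in which the balance of fast and slow forms can shift.

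RNA sequencing gave 9 libraries, 3 in each of 3 groups, from a study that randomised 24 rats to 3 groups of 8. Blank rats had no operation and no treatment. Rats of the SUI group, a model of stress urinary incontinence, underwent removal of both ovaries and vaginal distension, in which an 8 Fr Foley balloon catheter that held 3 mL of saline carried a 120 g weight for 4 h, and had no further treatment. Rats of the stimulated group had the same ovary removal and distension and, starting 1 week later, transvaginal pelvic floor electrical stimulation (PFES) with monophasic square pulses of 50 Hz, 20 mA and 200 µs, given for 2 weeks in sessions of 30 min, 5 days each week. Both operated groups thus share the ovary removal and the distension, no group had only 1 of these, and no group had electrodes without current. The sources used here give no age for the rats. Nor do they say how 3 libraries relate to the 8 rats of a group, so a p-value here measures only the spread between libraries, which may in part be technical.

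Total counts per library ran from 50833480 to 147650284 with a median of 110699836. The muscle identity of the samples could be read from 7 skeletal muscle markers (Acta1, Ckm, Des, Mb, Ttn and the members Tnnt3 and Mylpf), all of which were detected, with a summed level of 75774 to 138048 CPM (counts scaled to library size with TMM factors). The 3 epithelial markers that had a row summed to at most 0.932 CPM. The 5 cardiac markers summed to 154 to 545 CPM, with Myh6 the highest, and only Nppa among them was at 0 in every library. Blank replicate 1 stood apart: 32.9% of its counts came from the mitochondrial genome, against 13.4% to 17.7% in the other libraries, and its median correlation with them was 0.920. SUI replicate 1 was next, at 0.949, against 0.954 to 0.968 for the remaining 7. Both libraries bear on the results below, which are therefore also given without them.

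In the mRatBN7.2 build used for the counts, most members lie apart from each other. Tnni2 (chr1:197594813-197597560, plus strand) and Tnnt3 (chr1:197652431-197669535, plus) are near neighbours, and Mylpf (chr1:181829743-181832545, plus), Actn3 (chr1:202159082-202175012, minus) and Mybpc2 (chr1:94994104-95017584, minus) are on the same chromosome. Tnnc2 (chr3:153513271-153514652, minus) and Mylk2 (chr3:141376691-141387728, plus) are on chromosome 3, Pvalb (chr7:109772593-109784561, minus) on chromosome 7 and Myl1 (chr9:68437517-68448114, minus) on chromosome 9. The tables list Mylpf as Myl11, which RefSeq gives as the same gene, and Myl1 as Myl1_v1.

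The symbol Myh2 stands on 2 rows of the tables. The higher row (ENSRNOG00000049695, chr10:51885913-51909699, plus) spans 23.8 kb and the lower row (ENSRNOG00000065740, chr10:51856738-51883236, plus) 26.5 kb. They are the only rows between Myh3 and Myh8, where the RefSeq annotation of another build (GRCr8) lists Myh2, Myh1 and Myh4 with spans of 26.5, 23.9 and 23.1 kb. By span the lower row matches Myh2 (26.499 against 26.497 kb), and the higher row (23.787 kb) is nearest to Myh1 (23.889 kb). Spans of 2 builds alone do not settle which fast myosin the higher row counts. Myh1 and Myh4 are not analysed here under their own names. The heavy chain genes of this cluster are close copies, so reads could also be split between them in the counting. The higher row is called Myh2 below, by the rule, and the lower is called the second Myh2 row. Values given for Myh2 may thus be those of another fast heavy chain.

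To show the regulatory sequence beside the values, promoters were taken from RefSeq (GRCr8), whose table holds windows for 8 of the 10 members, with 9 windows in all since Myl1 has 2. Tnnt3 and Mylk2 have no window. Each window covers 250 bases before and 50 after the start of transcription, and the 250 before it are printed for 4 members. Mylpf is the most abundant transcript of the set, and Myl1 is the only member with 2 windows. Tnni2 and Tnnc2 are troponin subunits whose ratio is described below. Capitals mark matches, on either strand, to the E-box CANNTG, the TATA box TATAAA, the MCAT motif CATTCC or the MEF2 motif. The windows are chr1:191260039-191260288 (plus) for Mylpf, chr9:75907697-75907946 and chr9:75897800-75898049 (both minus) for the upstream and downstream starts of Myl1, chr1:207024240-207024489 (plus) for Tnni2 and chr3:173935340-173935589 (minus) for Tnnc2.
Mylpf: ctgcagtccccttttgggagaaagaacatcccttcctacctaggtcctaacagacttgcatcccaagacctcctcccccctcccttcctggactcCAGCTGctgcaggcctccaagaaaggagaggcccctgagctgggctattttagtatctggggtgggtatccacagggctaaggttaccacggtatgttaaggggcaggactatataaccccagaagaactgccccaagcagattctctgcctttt
Myl1 upstream start: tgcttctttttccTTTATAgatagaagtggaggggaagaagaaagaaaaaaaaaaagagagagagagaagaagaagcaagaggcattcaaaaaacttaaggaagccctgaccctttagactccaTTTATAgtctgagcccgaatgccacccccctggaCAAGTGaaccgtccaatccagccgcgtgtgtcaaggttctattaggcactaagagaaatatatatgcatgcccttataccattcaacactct
Myl1 downstream start: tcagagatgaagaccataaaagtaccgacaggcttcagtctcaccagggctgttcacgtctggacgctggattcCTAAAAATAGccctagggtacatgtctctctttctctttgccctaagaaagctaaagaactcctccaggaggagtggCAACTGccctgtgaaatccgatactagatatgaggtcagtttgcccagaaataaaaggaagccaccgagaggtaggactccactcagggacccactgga
Tnni2: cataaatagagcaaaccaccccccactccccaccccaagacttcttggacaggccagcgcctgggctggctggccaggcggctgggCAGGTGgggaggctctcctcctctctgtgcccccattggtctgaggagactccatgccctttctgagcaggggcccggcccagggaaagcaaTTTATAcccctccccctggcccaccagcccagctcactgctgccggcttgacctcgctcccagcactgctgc
Tnnc2: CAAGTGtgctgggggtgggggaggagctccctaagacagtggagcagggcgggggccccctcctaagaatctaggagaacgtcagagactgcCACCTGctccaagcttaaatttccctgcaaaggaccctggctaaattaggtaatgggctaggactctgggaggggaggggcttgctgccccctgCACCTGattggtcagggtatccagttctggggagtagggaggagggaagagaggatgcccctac

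An E-box, the kind of site read by the MyoD family, occurred in 7 of the 9 windows of 300 bases, while 72.1% of all 33469 RefSeq windows hold one, so its presence does not mark these genes out. The TATA box was in 3 of 9 (14.2% of all windows) and the MCAT motif in 1 of 9 (14.2% of all), that of Mybpc2. The MEF2 motif was found once, before the downstream start of Myl1, and is in 0.565% of all windows. No match of the MEF2 motif overlapped an E-box. These are matches of letters and say nothing of binding.

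Myl1 makes its long and short essential light chains from alternative starts, which in RefSeq lie 9.90 kb apart. The row for Myl1 spans 10.6 kb, which is the length from the downstream start to the end of the gene in RefSeq (10.6 kb) and not that from the upstream start (20.5 kb). Its counts may therefore not hold all reads of the gene.

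Levels between genes were compared as FPKM, which is scaled by gene length. The members covered a wide range, with a mean over the 9 libraries of 9717 FPKM for Mylpf at the top and 449.8 FPKM for Mylk2 at the bottom. Among all nuclear rows Mylpf ranked 3, Tnnt3 (7366 FPKM) 4, Tnnc2 (7186 FPKM) 5, Myh2 (6915 FPKM) 8 and Myl1 (6525 FPKM) 9. Below them came Tnni2 (4963 FPKM), Actn3 (2569 FPKM), Pvalb (1825 FPKM) and Mybpc2 (1145 FPKM), and the second Myh2 row had 730.0 FPKM. Not every step in this order held library by library. Mylpf was above Tnnt3 in 8 of 9 libraries, yet Tnnt3 was above Tnnc2 in only 1 of 9, blank replicate 1, which alone put its mean higher. Myh2 was above Myl1 in 4 of 9, so these neighbours did not differ beyond their spread, while Tnni2 was above Actn3, Pvalb above Mybpc2 and Mybpc2 above the second Myh2 row in all 9. The members took 9.41% to 12.7% of all counts of a library.

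**Figure D1:**
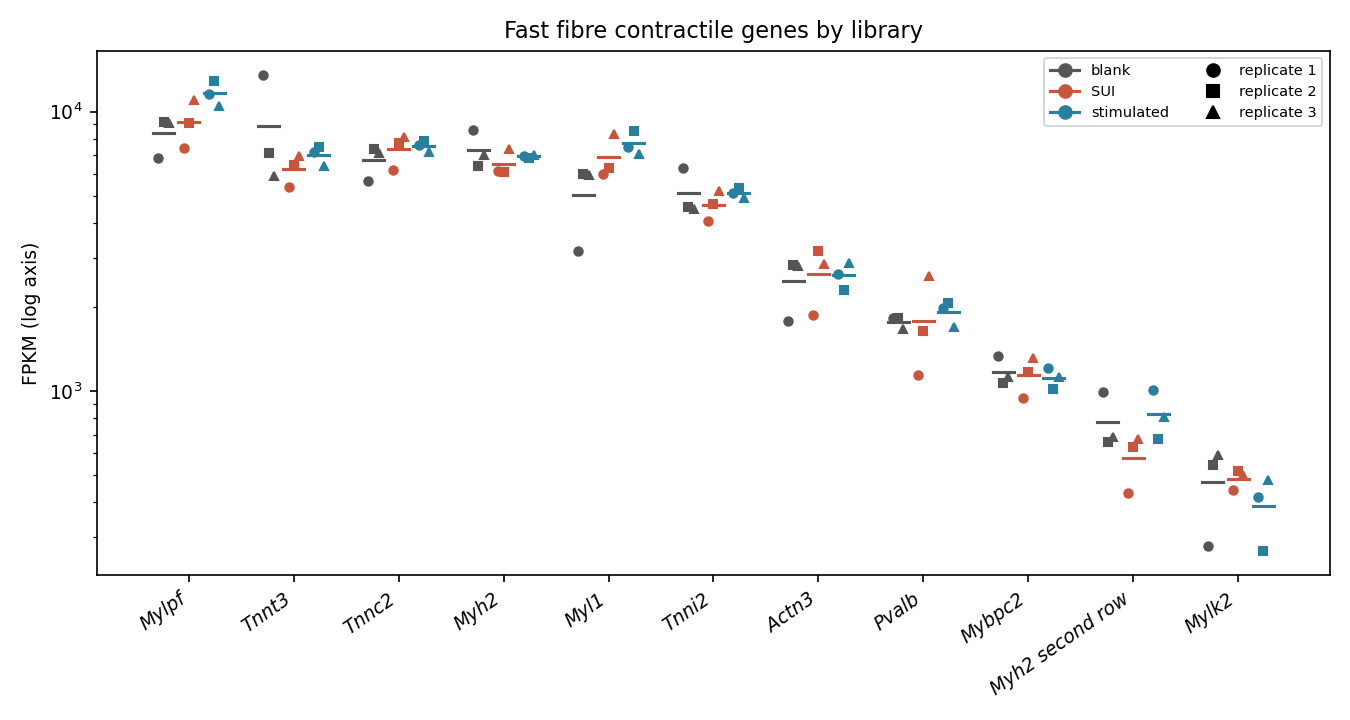
FPKM (log axis) of the 10 members and the second Myh2 row, ordered by their mean, in each library. Symbols are replicates 1 to 3, colours are groups and lines are group means. Mylpf lies at the top (mean 9717 FPKM) and Mylk2 at the bottom (449.8 FPKM), and the blank library drawn as a circle is far above the others for Tnnt3.

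Myosin heavy chain is the motor itself. Myh2 had 84316, 43534 and 48302 CPM in blank replicates 1 to 3, 34077, 43194 and 54443 CPM in SUI, and 56358, 45915 and 51545 CPM in stimulated muscle. Blank replicate 1 was the highest and SUI replicate 1 the lowest of the 9, and all 3 groups overlapped. The edgeR log2 fold change was -0.42 ± 0.32 (SE) for SUI against blank (adjusted p = 0.693), 0.22 ± 0.32 for stimulated against SUI (adjusted p = 0.923) and -0.20 ± 0.32 for stimulated against blank (adjusted p = 0.922). In FPKM the gene was steadier, at 6083 to 8554.

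The second Myh2 row had 9845, 4500 and 4749 CPM in blank, 2423, 4498 and 5004 CPM in SUI and 8261, 4551 and 5971 CPM in stimulated libraries. Its edgeR log2 fold change was -0.68 ± 0.40 (SE) for SUI against blank and 0.66 ± 0.40 for stimulated against SUI. Both values were larger in size than those of the higher row, with the same signs. For stimulated against blank the value was -0.02 ± 0.40, and the adjusted p (edgeR) were 0.633, 0.738 and 0.995 in this order. As a share of the higher row's FPKM the second row came to 11.6%, 10.3% and 9.80% in blank, 7.08%, 10.4% and 9.15% in SUI and 14.6%, 9.89% and 11.5% in stimulated muscle. The lowest share was that of SUI replicate 1 and the highest that of stimulated replicate 1, and the other 7 lay between 9.15% and 11.6%. Other heavy chains were lower than the higher row in every library: slow Myh7 had a median of 662 FPKM, cardiac Myh6 53.8 FPKM, neonatal Myh8 52.3 FPKM, extraocular Myh13 42.6 FPKM and embryonic Myh3 10.7 FPKM. The second row and Myh7 were about level, with a ratio of 0.776 to 1.70 and a median of 1.17.

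The light chains sit on the neck of the myosin head. Mylpf, the fast regulatory light chain, had 7711, 7343 and 7419 CPM in blank, 4896, 7425 and 9336 CPM in SUI and 10812, 9900 and 8857 CPM in stimulated libraries. The 3 stimulated libraries were all above the 3 blank ones, by the mean 9856 ± 978 against 7491 ± 194 CPM (SD, n = 3), whereas SUI ran across both. The log2 fold change was -0.05 ± 0.27 for SUI against blank, 0.45 ± 0.27 for stimulated against SUI and 0.40 ± 0.27 for stimulated against blank, with adjusted p of 0.952, 0.730 and 0.898 (edgeR).

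Myl1, the fast essential light chain, had 6277, 7736 and 7800 CPM in blank, 6375, 8505 and 11890 CPM in SUI and 11663, 10901 and 9856 CPM in stimulated libraries. Here too the stimulated libraries were above every blank one, at 10807 ± 907 against 7271 ± 861 CPM (SD, n = 3). Its change from blank to stimulated was 0.57 ± 0.27 in log2, with a 95% interval of -0.03 to 1.18. This was the largest rise in value among the 10 members in any comparison, while the second Myh2 row rose by 0.66 from SUI to stimulated. The rise of Myl1 did not pass the threshold (edgeR quasi-likelihood test, adjusted p = 0.898). Against blank the SUI value was 0.30 ± 0.27 higher in log2, and stimulated against SUI a further 0.28 ± 0.27.

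Troponin is the calcium switch of the thin filament. Tnnt3, the fast tropomyosin-binding subunit, had 33060, 11700 and 10894 CPM in blank, 8459, 12931 and 14625 CPM in SUI and 13888, 11592 and 12110 CPM in stimulated libraries. Blank replicate 1 had more than any other library by a wide margin, and the other 8 lay between 8459 and 14625 CPM. This library set both the mean of blank (18552 ± 12571 CPM, SD, n = 3) and the log2 fold change of -0.63 ± 0.43 for SUI against blank (edgeR adjusted p = 0.667). With blank replicate 1 left out that value was 0.09, and with SUI replicate 1 left out as well it was 0.29.

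Tnni2, the fast inhibitory subunit, showed the same library on top, with 11028, 5684 and 5711 CPM in blank, 4158, 6362 and 7571 CPM in SUI and 7580, 6762 and 6542 CPM in stimulated muscle. Tnnc2, the calcium-binding subunit of fast fibres, had 6874, 6145 and 6055 CPM in blank, 4243, 6733 and 7364 CPM in SUI and 7574, 6474 and 6503 CPM in stimulated muscle. It was the steadiest of the members, with a coefficient of variation over the 9 libraries of 15.0%, against 50.4% for Tnnt3. Apart from SUI replicate 1, all its libraries lay between 6055 and 7574 CPM. For neither gene did any comparison pass (edgeR adjusted p of 0.770, 0.937 and 0.964 for Tnni2 and 0.947, 0.933 and 0.948 for Tnnc2, in the order SUI against blank, stimulated against SUI, stimulated against blank).

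Actn3 cross-links actin at the Z-disc of fast fibres. It had 8371, 9173 and 9250 CPM in blank, 4987, 10690 and 10070 CPM in SUI and 10196, 7364 and 10087 CPM in stimulated libraries. Group means were 8931 ± 487, 8582 ± 3129 and 9216 ± 1604 CPM (SD, n = 3), closer together than the libraries of the SUI group, in which replicate 1 was again lowest. Mybpc2, the fast myosin-binding protein C of the thick filament, had 7982, 4422 and 4707 CPM in blank, 3202, 5039 and 5942 CPM in SUI and 5989, 4166 and 5009 CPM in stimulated libraries. Blank replicate 1 was highest and SUI replicate 1 lowest, and the other 7 ran from 4166 to 5989 CPM.

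Pvalb, the calcium buffer that speeds relaxation of fast fibres, had 3780, 2619 and 2428 CPM in blank, 1341, 2460 and 4014 CPM in SUI and 3385, 2924 and 2633 CPM in stimulated muscle. The SUI group held both its lowest and its highest library, so the SD of SUI (1342 CPM) exceeded every difference between groups. Mylk2, the kinase that phosphorylates the regulatory light chain, had 971, 1301 and 1439 CPM in blank, 865, 1292 and 1299 CPM in SUI and 1197, 630 and 1245 CPM in stimulated libraries. It did not follow the other members: stimulated replicate 2 was its lowest library, and it was the only member with a lower value in stimulated than in SUI muscle (-0.17 ± 0.31, edgeR adjusted p = 0.95).

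Much of the spread of the set lay between libraries of 1 group. SUI replicate 1 was the lowest library for 8 of the 10 members, and stood 0.65 below the 9-library mean in log2 CPM on average (SD over members 0.18). Blank replicate 1 was the highest for 4 members (Myh2, Tnnt3, Tnni2 and Mybpc2) and the lowest for Myl1, so its deviations went both ways (mean 0.33, SD over members 0.55). In SUI replicate 3 and stimulated replicate 1 all 10 members were above their mean, by 0.26 and 0.24 on average. Over the 45 pairs of members the median correlation of log2 CPM across 9 libraries was 0.62, with 14 pairs over 0.8, and without blank replicate 1 it was 0.88, with 29 pairs over 0.8. These correlations share library scaling and depth and are a description. In bulk tissue, fewer fast fibres and less RNA per fibre cannot be told apart.

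**Figure D2:**
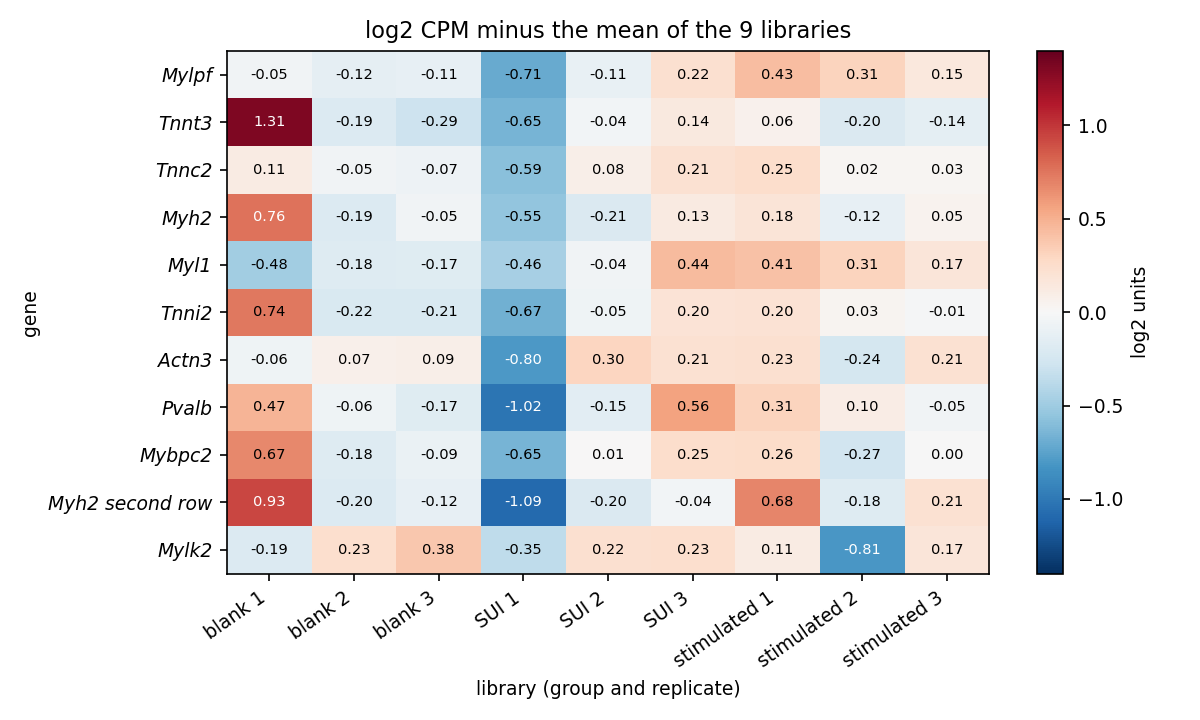
Each member's log2 CPM in a library minus its mean over the 9 libraries (red above, blue below), with genes in rows and libraries in columns. The column of SUI replicate 1 is blue throughout (mean over the members -0.65), blank replicate 1 is mixed, with Tnnt3 at 1.31 and Myl1 at -0.48, and Mylk2 is at -0.81 in stimulated replicate 2.

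The first comparison asks how the muscle of SUI rats differed from untouched muscle. None of the 10 genes changed in edgeR's quasi-likelihood test (0 called at an adjusted p of 0.05 and 0 at an unadjusted p of 0.05, and 0 called by DESeq2 or voom). Over all genes tested 0% were called and 8.18% had an unadjusted p under 0.05. By value 9 members were lower in SUI and Myl1 was higher, with a median log2 fold change of -0.14 against 0.01 over all genes, and adjusted p ran from 0.667 to 0.956. No member had groups that did not overlap, where 7.34% of all genes did with SUI higher and 7.77% with SUI lower.

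That count of 9 lower values turned on the scaling and on the libraries named above. Scaled by library totals in place of TMM, 5 were lower and 5 higher, in FPKM likewise 5 and 5, and under voom with sample weights 2 were lower and 8 higher. The median of the members stayed below that of all genes with library totals (0.003 against 0.19) and in FPKM (0.02 against 0.19, pseudocount 0.1). Under voom it was above (0.11 against -0.003). Without SUI replicate 1 it was 4 lower and 6 higher, without blank replicate 1 also 4 and 6, and without both 1 lower and 9 higher with a median of 0.24. The 95% intervals of the members reached from 0.332-fold to 1.86-fold.

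Stimulated against SUI muscle asks what went with stimulation in rats that all had the model. Again 0 of 10 members were called (edgeR, and 0 by DESeq2 and by voom) and 0 had an unadjusted p under 0.05. Of all genes 0.0123% were called and 8% had an unadjusted p under 0.05. By value 9 members were higher and Mylk2 lower, the median was 0.18 against 0.02 over all genes, and adjusted p ran from 0.730 to 0.990. In 0 members did the groups fail to overlap, against 9.52% of all genes with stimulated higher and 9.28% with stimulated lower. Here SUI replicate 1 decided the sign: without it 4 members were higher and 6 lower, with a median of -0.07, and under voom with sample weights it was 5 and 5. The 95% intervals of the members ran from 0.537-fold to 2.06-fold.

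Stimulated against blank muscle asks whether treated rats differed from rats that were never operated on. The same blank libraries served in the first comparison and the same stimulated libraries in the second, so the 3 sets of values are not independent. No member was called (0 of 10 by edgeR, by DESeq2 and by voom, and 0 with an unadjusted p under 0.05), where 0.00615% of all genes were called and 3.77% had an unadjusted p under 0.05. By value 5 were higher and 5 lower, with a median of -0.04 against 0.04 over all genes and adjusted p of 0.898 to 0.996. The groups did not overlap for 2 of 10, Mylpf and Myl1, both higher in stimulated muscle, while 7.9% of all genes were higher and 4.72% lower without overlap. Without blank replicate 1 the count became 8 higher and 2 lower with a median of 0.14, and without SUI replicate 1 as well it was 9 and 1 with a median of 0.16.

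**Figure D3:**
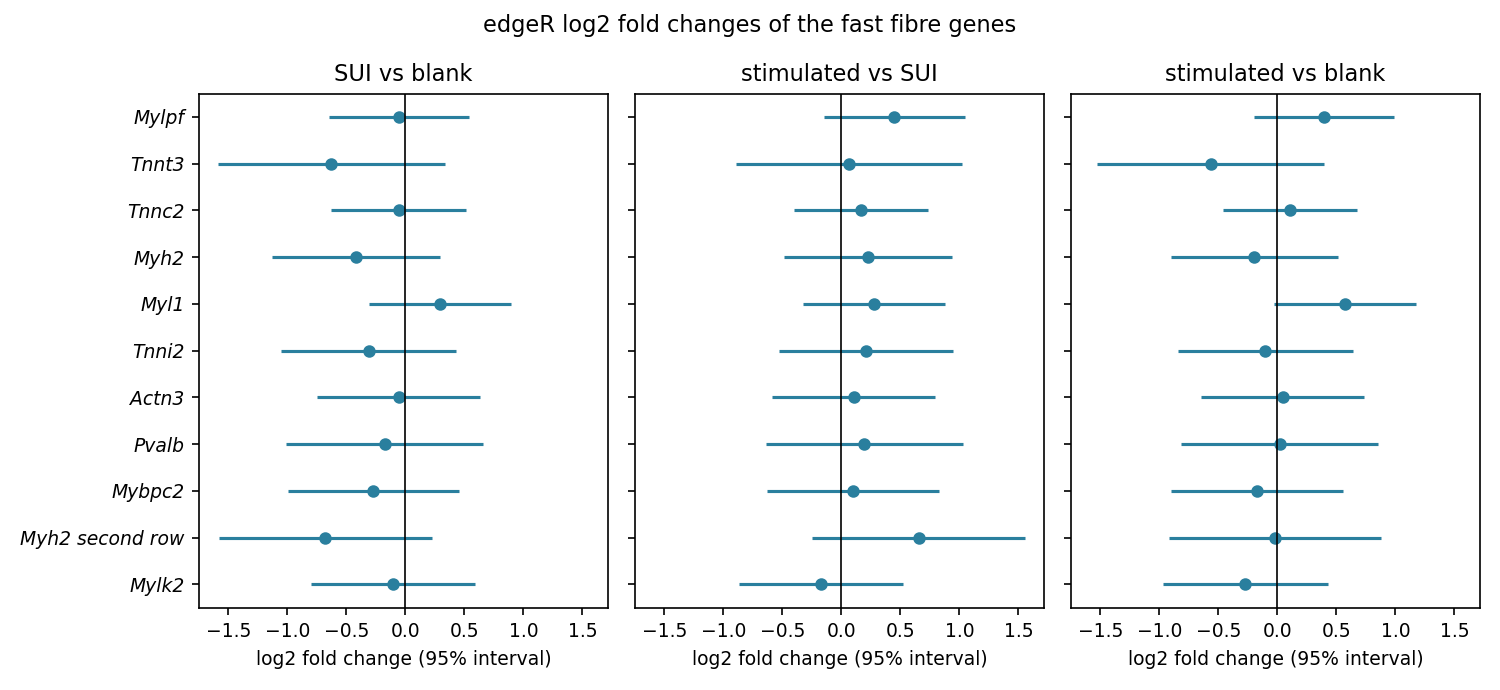
Log2 fold change with its 95% interval (edgeR, all 9 libraries in 1 fit) of the 10 members and the second Myh2 row in the 3 comparisons. Every interval crosses 0. The interval of Myl1 in stimulated against blank muscle (-0.03 to 1.18) comes nearest to leaving it, and those of Tnnt3 are the widest.

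A shift between fibre types would move a fast gene against its slow counterpart, and this ratio needs no scaling between libraries. Each of 8 fast genes was set against the gene of the same role listed as its slow counterpart, as a ratio of FPKM within a library. Whether Actn2 and Mybpc1 mark slow fibres alone was not tested, so their pairs may not compare fast with slow fibres. The fast gene was the higher in all 9 libraries for all 8 pairs. Median ratios were 18.6 for troponin C (Tnnc2 over Tnnc1), 16.8 for the regulatory light chain (Mylpf over Myl2), 10.1 for the heavy chain (Myh2 over Myh7), 9.54 for the essential light chain (Myl1 over Myl3), 8.41 for troponin I (Tnni2 over Tnni1), 6.75 for troponin T (Tnnt3 over Tnnt1) and 4.98 for alpha-actinin (Actn3 over Actn2). Myosin-binding protein C was the exception in size, with Mybpc2 only 1.13 to 1.52 times Mybpc1.

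None of the 24 ratio comparisons passed an exact two-sided permutation test over libraries, which with 3 against 3 cannot give a p below 0.1, and the lowest adjusted p was 0.686. Ratios were higher in SUI than in blank for 4 of 8 pairs and lower for 4 (median difference -0.03 in log2), higher in stimulated than in SUI for 5 of 8 (median 0.16) and higher in stimulated than in blank for 3 of 8 (median -0.06). Separate groups, with p = 0.1 in the exact permutation test, were seen for 2 pairs. Mybpc2 over Mybpc1 was lower in stimulated than in SUI muscle, at 0.21 ± 0.065 against 0.46 ± 0.14 in log2 (SD, n = 3). Myl1 over Myl3 was higher in stimulated than in blank muscle, at 3.55 ± 0.39 against 2.82 ± 0.39 (SD, n = 3).

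The library that departed most from its group differed with the gene. SUI replicate 2 had the lowest ratio of all 9 for 5 of the 8 pairs, among them Mylpf over Myl2 (9.13, against a median of 16.8) and Tnnt3 over Tnnt1 (4.28). Its slow genes were high there: Myl2 stood at 997 FPKM against 385 to 682 FPKM in the other 8, and Tnnc1 at 603 FPKM against 173 to 422 FPKM. In blank replicate 1 Tnnc1 (173 FPKM) and Tnni1 (353 FPKM) were at their lowest in FPKM, and Tnni2 over Tnni1 at its highest, 17.9. In TMM-scaled CPM Tnnc1 was also at its lowest there (289 CPM), but Tnni1 (622 CPM) was lower in SUI replicate 1 (466 CPM).

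**Figure D4:**
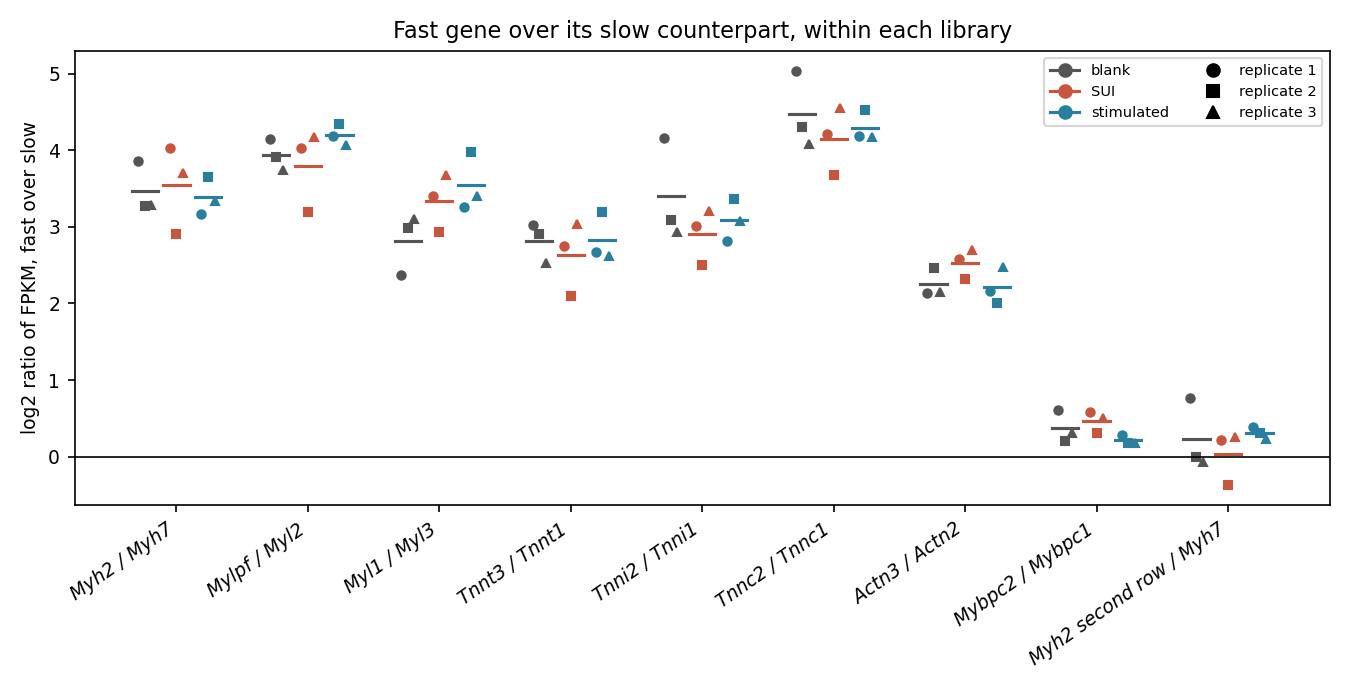
Log2 ratio of FPKM of each fast gene to its listed slow counterpart within each library (symbols are replicates, colours are groups, lines are group means, and 0 is an equal level). All 8 pairs lie above 0 in every library, 7 of them above 2, while Mybpc2 over Mybpc1 and the second Myh2 row over Myh7 lie close to 0.

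Ratios of Tnni2 and Tnnt3 to Tnnc2 were tighter than the levels of these genes only outside blank replicate 1. In the other 8 libraries, Tnni2 over Tnnc2 in FPKM stayed between 0.608 and 0.683, and in the 3 stimulated libraries between 0.677 and 0.683. Tnnt3 over Tnnc2 likewise stayed between 0.829 and 0.970 in those 8 libraries. SUI replicate 1 is 1 of these 8 libraries and was low for all 3 troponin genes. Its ratios (0.656 and 0.868) were at neither end of the ranges. Blank replicate 1 broke both, at 1.11 and 2.39, with Tnnt3 at 13556 FPKM and Tnnc2 at 5663 FPKM, the lowest of the 9 on that scale. In TMM-scaled CPM Tnnc2 was not lowest there (6874 CPM, against 4243 CPM in SUI replicate 1). The mitochondrial share and the low depth of blank replicate 1 go along with its broken ratios, and their part was not tested.

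Myl1 over Mylpf, the essential over the regulatory light chain, was 0.804, 0.690 and 0.757 in SUI, 0.650, 0.664 and 0.674 in stimulated and 0.464, 0.654 and 0.649 in blank libraries. All 3 SUI libraries were above the 6 others, although neither gene alone set SUI apart. This ratio was looked at after its values were seen and has no test, and the smallest p that 3 against 3 libraries allow is 0.1. Mylk2 over Mylpf, the kinase over its substrate, ranged from 0.0208 in stimulated replicate 2 to 0.0650 in blank replicate 3. The groups overlapped, with 0.0364, 0.0208 and 0.0462 in stimulated libraries against 0.0596, 0.0570 and 0.0455 in SUI and 0.0411, 0.0593 and 0.0650 in blank.

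**Figure D5:**
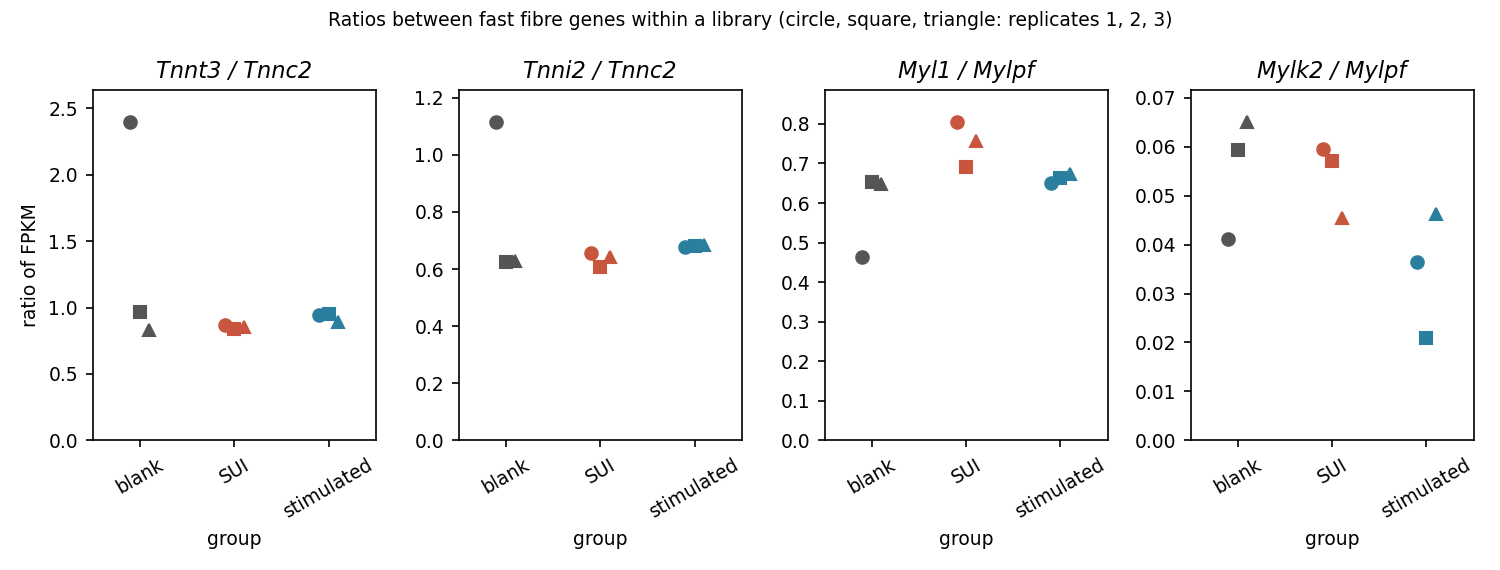
Ratios of FPKM between members within each library (points by group, axes from 0). Blank replicate 1 is alone at 2.39 and 1.11 in the troponin panels, and the 3 SUI points are the highest in the panel of Myl1 over Mylpf (0.690 to 0.804).

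Genes of the same setting were taken from lists, with 0 called by edgeR in any list and any comparison. Over all genes tested, 50.8% were higher in SUI than in blank and 52.6% in stimulated than in SUI. In stimulated against blank it was 54.3%. Of 14 slow fibre genes, 3 were higher and 11 lower in SUI than in blank (median -0.31), and 11 higher and 3 lower in stimulated than in SUI (median 0.11), the same signs as most of the fast genes had on the TMM scale. Myoz2, a slow Z-disc protein, was the only 1 of them with an unadjusted p under 0.05 (-0.97 ± 0.41, SUI against blank, edgeR adjusted p = 0.589). Of 19 other fast fibre genes tested, 9 were higher and 10 lower in SUI than in blank (median -0.01), and 15 were higher in stimulated muscle than in SUI and also than in blank (median 0.22 in each). Of 12 sarcomere genes common to both fibre types, 8 were lower in SUI than in blank (median -0.21) and 9 higher in stimulated than in SUI (median 0.05). No list, here or below, was counted again without SUI replicate 1 or blank replicate 1, which turned the counts of the members. SUI replicate 1 was also the lowest library for slow genes such as Myh7 (2050 CPM), Myl2 (292 CPM) and Mybpc1 (2224 CPM), though not for Tnnc1.

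Among the other fast fibre genes Fbp2, the muscle form of fructose bisphosphatase, differed most. It had 60.2, 304 and 288 CPM in blank, 27.3, 90.1 and 47.2 CPM in SUI and 57.7, 74.6 and 74.1 CPM in stimulated libraries. Blank replicates 2 and 3 were far above the rest while blank replicate 1 was not. The edgeR log2 fold change was -1.99 ± 0.59 for SUI against blank (adjusted p = 0.504) and -1.66 ± 0.58 for stimulated against blank (adjusted p = 0.898). Eno3 and Pgam2, glycolytic enzymes of fast muscle, had their highest group mean in stimulated muscle, with no call. For Eno3 the means were 4526 ± 1575 CPM in blank, 5736 ± 2207 CPM in SUI and 6680 ± 195 CPM in stimulated muscle (SD, n = 3). For Pgam2 they were 1510 ± 359, 1861 ± 834 and 2382 ± 186 CPM. Blank replicate 1 was the lowest blank library for both genes (2708 and 1130 CPM). SUI replicate 3 (7958 and 2609 CPM) was above every stimulated library.

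Fibre type regulators, 27 in number, were lower in SUI than in blank in 18 cases (median -0.29), and 5 of the 27 had an unadjusted p under 0.05, a share to be read beside the 8.18% of all genes. Hdac4, a deacetylase that represses MEF2, was the 1 of these that was higher: it had 6.96, 6.50 and 10.8 CPM in blank, 23.0, 34.1 and 21.6 CPM in SUI and 16.1, 9.55 and 11.3 CPM in stimulated libraries. SUI stood above both other groups without overlap, with log2 fold changes of 1.70 ± 0.30 against blank (edgeR adjusted p = 0.200) and -1.09 ± 0.29 for stimulated against SUI (edgeR adjusted p = 0.425). DESeq2 called both of these differences.

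Vgll2, a muscle cofactor of TEAD factors, ran opposite, with 76.0, 71.5 and 60.5 CPM in blank, 20.9, 45.5 and 27.2 CPM in SUI and 62.7, 47.7 and 65.1 CPM in stimulated libraries. Its log2 fold change was -1.15 ± 0.29 for SUI against blank and 0.91 ± 0.28 for stimulated against SUI, and edgeR called neither. Nfatc2, a calcineurin-dependent factor, had 18.6, 15.7 and 15.0 CPM in blank, 4.68, 11.8 and 5.94 CPM in SUI and 12.5, 14.1 and 15.8 CPM in stimulated muscle, again with SUI below both groups. Neither gene passed, and none of the 10 contractile genes had all SUI libraries below or above another group.

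Markers of other cell types differed between the groups in value. The 6 fibroblast markers summed to 1469 to 1849 CPM in blank, 533 to 970 CPM in SUI and 1012 to 3696 CPM in stimulated libraries, and 6 of 6 were lower in SUI than in blank, 4 with an unadjusted p under 0.05, against 8.18% of all genes in either direction. The 6 smooth muscle markers summed to 775 to 1812, 227 to 753 and 922 to 1058 CPM, with SUI replicate 1 the lowest. Synpo2 was the highest of these markers on average and Cnn1 the lowest (1.76 CPM). Whether Synpo2 marks smooth muscle alone was not tested, so this sum may not stand for smooth muscle content. The 4 leukocyte markers with a row summed to at most 15.4 CPM. Their part in the values of the contractile genes was not tested.

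By likeness over the 9 libraries, the genes closest to the mean log2 CPM of the members, among 12077 compared, were Apip (Pearson's r = 0.978, Spearman's rho = 0.900), Mrpl13 (0.977 and 0.900), Pkia (0.977 and 0.883), Srsf5 (0.971 and 0.833) and Eef1a2 (0.967 and 0.867). Without blank replicate 1 their r was 0.962 to 0.986. Pkia encodes an inhibitor of protein kinase A and Eef1a2 the translation elongation factor of adult muscle and nerve. These are descriptions over 9 libraries that share scaling.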

How the data were processed

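RNA of rat pubococcygeus muscle was sequenced in 9 libraries. The sample titles gave each library's group and number, also for the SUI group, which the library names call sham, and all 9 carry the same batch label. Bowtie2, RSEM 1.3.1, DESeq2 1.4.5 and the build mRatBN7.2 are named in the submitters' processing notes, while strand use in counting is not stated there. The authors deposited expected counts, which are whole numbers and were used as they stand, and FPKM values, which they scaled by gene length and library size (per the file headers). Of 30518 rows, 4341 have no symbol.

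Counts were filtered with filterByExpr (16256 genes), scaled by TMM and tested with edgeR 4.0.16 in R 4.3.3 (quasi-likelihood F test, robust, all 9 libraries in 1 fit, Benjamini-Hochberg adjustment at 0.05 over all genes tested). The standard error is the size of the log2 fold change over the square root of F. Counting error is small at this depth, where 3 counts are 0.0210 to 0.0794 CPM, and intervals cover 95%. Fast to slow ratios of FPKM were compared by exact permutation tests with adjustment over 24 tests. The members, the lists and the rules were chosen with earlier results of these data known. The rule for names takes all 10 members, their slow counterparts, up to 4 genes of each list with the smallest p and the 5 genes most like the mean of the members (mean CPM of at least 1); ratios between members were added after the values were seen. The step was tested on simulated data. RefSeq tables of GRCr8 were used for names, neighbours and promoters only. Listed genes without a row, such as Atp2a1, Myoz3, Aldoa and Ldha, are not analysed here.

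Alternatives were other size factors, library totals, no mitochondrial transcripts, other filters, DESeq2 1.42.0, voom with sample weights (limma 3.58.1), a fit with replicate number as a block, limma on log2 FPKM with a pseudocount of 1 or 0.1, removal of a length trend, fits on the 6 libraries compared and leaving out libraries.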

Additional observations from a re-analysis of the deposited data

How the results depend on the processing

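No member was called under any alternative, among 660 values of a member, a comparison and a setting, and 87 of these had the opposite sign to the value reported. The cause of these turns was not tested. All of the following are log2 fold changes. With library totals, which moved the median of all genes to 0.19, -0.11 and 0.09 in the 3 comparisons, SUI against blank was 0.094 for Mylpf, 0.10 for Tnnc2, 0.064 for Actn3 and 0.019 for Mylk2, stimulated against SUI was -0.040 for Tnnt3 and -0.0099 for Mybpc2, and stimulated against blank was 0.024 for Tnni2 and 0.091 for the second Myh2 row. Under voom with sample weights SUI against blank was 0.085 for Mylpf, 0.12 for Tnnt3, 0.15 for Tnni2, 0.11 for Tnnc2, 0.053 for Actn3, 0.15 for Pvalb and 0.13 for Mybpc2, stimulated against SUI was -0.085 for Tnnt3, -0.0021 for Tnnc2, -0.056 for Pvalb and -0.037 for Mybpc2, and stimulated against blank was 0.12 for Myh2, 0.032 for Tnnt3, 0.18 for Tnni2, 0.095 for Mybpc2 and 0.33 for the second Myh2 row. In FPKM, with either pseudocount, SUI against blank was 0.12 for Mylpf, 0.13 for Tnnc2, 0.086 for Actn3 and 0.11 for Mylk2, stimulated against SUI was -0.023 for Mybpc2, and stimulated against blank was 0.022 for Tnni2 and 0.10 for the second Myh2 row. Pvalb in stimulated against blank was -0.020 with DESeq2 and with its size factors, -0.010 in the fit on 6 libraries and -0.074 with the length trend removed, where Tnnc2 was -0.041 and the second Myh2 row 0.12.

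With blank replicate 1 and SUI replicate 1 left out together, SUI against blank was 0.088 for Myh2, 0.18 for Mylpf, 0.29 for Tnnt3, 0.29 for Tnni2, 0.21 for Tnnc2, 0.17 for Actn3, 0.36 for Pvalb, 0.27 for Mybpc2 and 0.039 for the second Myh2 row. Stimulated against SUI was then -0.14 for Tnnt3, -0.00039 for Tnni2, -0.040 for Tnnc2, -0.17 for Actn3, -0.12 for Pvalb and -0.12 for Mybpc2, and stimulated against blank was 0.16 for Myh2, 0.15 for Tnnt3, 0.29 for Tnni2, 0.15 for Mybpc2 and 0.44 for the second Myh2 row. Leaving out each library in turn, SUI against blank ran from -0.90 to 0.094 for Tnnt3, -0.50 to 0.088 for Tnni2, -0.21 to 0.14 for Tnnc2, -0.63 to 0.13 for Pvalb, -0.47 to 0.056 for Mybpc2, -0.24 to 0.053 for Mylk2, -0.28 to 0.15 for Mylpf and -0.27 to 0.20 for Actn3. Stimulated against SUI ran from -0.13 to 0.23 for Tnnt3, -0.032 to 0.32 for Tnnc2, -0.16 to 0.29 for Actn3, -0.11 to 0.65 for Pvalb, -0.11 to 0.30 for Mybpc2 and -0.33 to 0.085 for Mylk2. Stimulated against blank ran from -0.37 to 0.14 for Myh2, -0.83 to 0.13 for Tnnt3, -0.26 to 0.27 for Tnni2, -0.032 to 0.19 for Actn3, -0.33 to 0.13 for Mybpc2, -0.27 to 0.42 for the second Myh2 row and -0.10 to 0.22 for Pvalb. Myl1 stayed positive in all 3 comparisons, Mylpf in stimulated against SUI and against blank, and Myh2 in stimulated against SUI, and Mylk2 stayed negative in stimulated against blank, under all alternatives run.

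The number of all genes called depended on the tool. In SUI against blank it was 0 with edgeR and 176 with DESeq2, and 0 to 1 leaving out each library. In stimulated against SUI it was 2 with edgeR, 208 with DESeq2, 48 with voom, 1 with library totals, 0 in FPKM with either pseudocount, 0 in the fit on 6 libraries, 0 without blank replicate 1 and SUI replicate 1, and 0 to 3 leaving out each library. In stimulated against blank it was 1 with edgeR, 21 with DESeq2, 0 in FPKM with a pseudocount of 1, 0 in the fit on 6 libraries, 0 without both libraries, and 0 to 1 leaving out each library. No pairing by replicate number was seen. Deviations of same-numbered libraries of different groups correlated at -0.22 to 0.11, over 0.1 in 1 of 9 pairs. Those of other numbers correlated at -0.18 to 0.21, over 0.1 in 3 of 18. With 3 libraries a group this cannot exclude a pairing. With the replicate block 0 members were called, and the count over all genes was 0, 1 and 0. For the members the spread over 3 libraries a group, not depth, set the precision.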
